A study of Mus musculus with 12 samples.

Results

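The 6 genes described here encode the receptors through which liver cells make or limit cyclic GMP, and they were chosen by name among the 53452 genes of the count table. Gucy1a1, Gucy1a2 and Gucy1b1 encode subunits of soluble guanylate cyclase, the receptor of nitric oxide. Npr1, Npr2 and Npr3 encode the natriuretic peptide receptors. All 6 were found by their Ensembl identifiers, and all 6 were among the 16036 genes that passed the filter on low counts.

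Soluble guanylate cyclase is a dimer of an alpha and a beta subunit that converts GTP to cyclic GMP when nitric oxide binds the haem held by the beta subunit. Riociguat is a drug that stimulates this enzyme directly and makes it more sensitive to nitric oxide. NPR1 and NPR2 are transmembrane receptors with a guanylate cyclase domain of their own, NPR1 for atrial and B-type natriuretic peptide and NPR2 for C-type natriuretic peptide. NPR3 has no cyclase domain, binds the same peptides and is known as the clearance receptor because it takes them into the cell. In the liver, stellate cells are pericytes of the sinusoids that store retinoids and contract, and cyclic GMP is known to relax contractile cells of this kind.

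RNA sequencing was made from cells called HSCs in the labels, which do not spell out the abbreviation and which are read here as hepatic stellate cells, freshly isolated from the liver of wild-type mice. The 4 groups of 3 libraries were DMSO for 12 h and riociguat for 6, 12 or 24 h, and no other genetic change or agent is named for any group. Every culture was kept for 12 h, given new medium and collected 24 h later, so that the compound was added 18 h after the medium change for the 6 h exposure, 12 h after it for both 12 h groups, and together with it for the 24 h exposure. The stage of culture at addition therefore moved with the exposure time, and the DMSO group matches the time of the 12 h exposure alone. No dose is stated in the labels. Nothing says that the replicates came from separate animals or isolations, so p-values measure only the spread between these libraries, which may be technical.

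Library totals were 12953096 to 27358893 counts. Levels are CPM, counts relative to library size after TMM scaling, given as mean ± SD with n = 3. Markers of stellate cells were present, with 1367 ± 12.8 CPM for Reln, 238 ± 5.05 CPM for Pdgfrb and 190 ± 17.3 CPM for Des in DMSO. Other genes of the list of 14 stellate markers were low. Lrat, the enzyme that esterifies retinol, was at 4.81 ± 1.84 CPM. Gfap was the lowest, at 0.431, 1.31 and 0.581 CPM in DMSO replicates 1, 2 and 3. Angptl6, Colec11, Ngfr and Adamtsl2 were low too. The remaining genes of the list, Ecm1, Rgs5, Hand2, Lhx2 and Vipr1, lay between these low genes and Reln. Genes that mark other liver cells were also read, and their summed levels in DMSO were 1360 ± 45.9 CPM for 14 endothelial genes and 1186 ± 29.7 CPM for 10 hepatocyte genes. The sum was 441 ± 39.3 CPM for 8 portal fibroblast and mesothelium genes and 273 ± 6.28 CPM for 5 cholangiocyte genes. It was 71.8 ± 6.52 CPM for 10 macrophage genes, 54.0 ± 4.55 CPM for 4 vascular smooth muscle genes and 2.81 ± 0.673 CPM for 4 lymphocyte genes. In a culture of mixed cells, fewer cells of a type and less RNA per cell cannot be told apart.

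Because levels of different genes can be compared only per length, CPM was divided by the kilobases of merged exons of each gene. In DMSO, Gucy1b1 was the highest member at 17.4 ± 0.357 CPM per kb. Gucy1a1 followed at 9.99 ± 1.30 CPM per kb and Npr3 at 8.41 ± 0.356 CPM per kb, and the lowest Gucy1a1 library, at 8.73, lay at the level of the highest Npr3 library. Npr1, at 7.07 ± 0.370 CPM per kb, and Npr2, at 6.62 ± 0.236 CPM per kb, overlapped, and they changed places when the longest transcript was used as the length, with 8.31 ± 0.435 against 8.44 ± 0.301 CPM per kb. Gucy1a2, an alternative alpha subunit, was far below the others at 0.518 ± 0.0482 CPM per kb. After 12 h of riociguat, Npr3 was at 3.57 ± 0.406 CPM per kb, below Npr1 at 7.39 ± 0.0613 and Npr2 at 6.48 ± 0.378 CPM per kb.

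**Figure D1:**
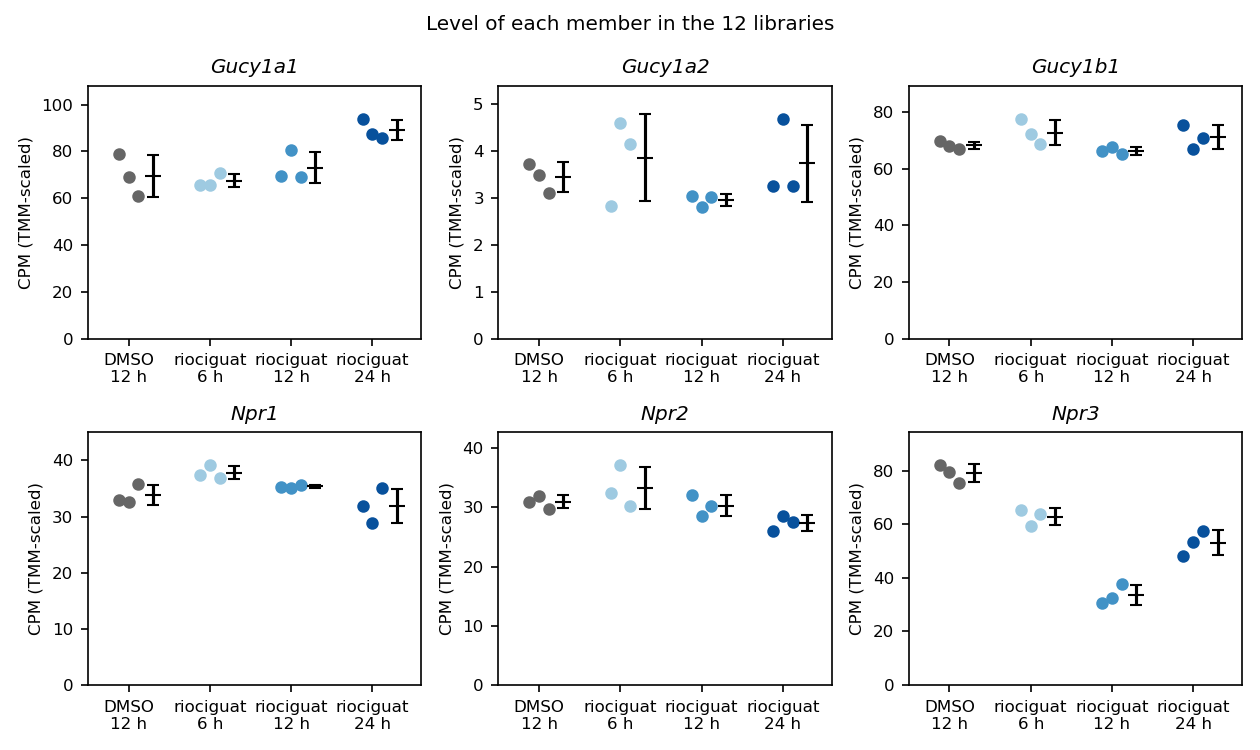
Level of each gene in CPM (TMM-scaled) on the vertical axis in the 4 groups on the horizontal axis. Each point is a library, the bars give mean ± SD, and every axis starts at 0. The 3 Npr3 libraries after 12 h of riociguat lie between 30.5 and 37.8 CPM, below the 3 DMSO libraries at 75.4 to 82.0 CPM.

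After 12 h of riociguat the clearance receptor gene Npr3 fell to 42.4% of its DMSO level, while none of the 3 cyclase subunits and neither of the cyclase-bearing receptors Npr1 and Npr2 passed the test. Npr3 was thus the 1 member of 6 that was called changed in this comparison of groups matched in time. Genes were called changed at an adjusted p under 0.05, in edgeR's quasi-likelihood test with Benjamini-Hochberg adjustment over all tested genes. Of all 16036 genes, 5.66% were called, with 2.18% higher and 3.48% lower.

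Npr3 (ENSMUSG00000022206) lies on the minus strand of chromosome 15, 11839896 to 11907287 in GRCm38. In DMSO it was counted at 82.0, 79.7 and 75.4 CPM in replicates 1, 2 and 3. After 6 h of riociguat the levels were 65.2, 59.5 and 64.0 CPM. After 12 h they were 30.5, 32.3 and 37.8 CPM. After 24 h they were 48.3, 53.5 and 57.7 CPM. Every riociguat library lay below every DMSO library, and the 12 h libraries were lowest and did not overlap with those of any other group.

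The fitted log2 fold change of Npr3 at 12 h was -1.24 ± 0.08 (SE, 95% CI -1.41 to -1.07), with an adjusted p of 2.23e-08 by edgeR's quasi-likelihood test. By p-value Npr3 ranked 16 among the 16036 tested genes in this comparison, and 24 of the 558 lower genes, Npr3 among them, fell at least as far. At 24 h the log2 fold change was -0.57 ± 0.08 (SE, adjusted p = 6.94e-05). At 6 h it was -0.33 ± 0.08 (SE, adjusted p = 0.0109), and this call was lost without replicate 2 of the 6 h group, at -0.29 with an adjusted p of 0.0658.

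The change of Npr3 differed between exposure times when the riociguat groups were tested against each other. The 12 h group was lower than the 6 h group by a log2 fold change of -0.91 ± 0.08 (SE, adjusted p = 1.74e-06, 6.09% of all genes called). The 24 h group was above the 12 h group by 0.66 ± 0.08 (SE, adjusted p = 0.000118, 3.08% called). These exposures also began at different stages of culture, and that and the exposure time cannot be told apart.

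The summed level of the 4 vascular smooth muscle markers was also lower with riociguat, and none of the 4 was called between 12 and 24 h of riociguat. These 4 genes summed to 50.1 to 59.0 CPM in DMSO, 36.3 to 40.7 CPM at 6 h, 24.9 to 28.9 CPM at 12 h and 25.1 to 28.3 CPM at 24 h, and 3 of the 4 (Myh11, Lmod1 and Actg2) fell at 12 h. The sum of the 14 stellate markers was 2339 to 2398 CPM in DMSO and 2445 to 2602 CPM at 12 h, with 1 gene higher (Reln) and 2 lower (Des and Pdgfrb). Reln, the largest part of this sum, was at 1352 to 1377 CPM in DMSO and 1555 to 1618 CPM at 12 h. The median log2 fold change of the 14 genes at 12 h was 0.036. The endothelial sum was 1310 to 1399 CPM in DMSO and 1244 to 1322 CPM at 12 h, and 1 of its 14 genes fell. No gene of these 3 lists was without reads in all libraries. Which cells carried the 4 smooth muscle markers, stellate cells among them, cannot be told from libraries of a whole culture. The part of any cell type in the fall of Npr3 was not tested.

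The promoters of the 3 receptor genes are shown because Npr3 fell while its relatives did not pass the test. They are the 250 bases before the gene start in RefSeq on GRCm38.p6, written along the gene's strand, with capitals for the motif matches described after them.
Npr3, chr15:11907372-11907621, minus strand: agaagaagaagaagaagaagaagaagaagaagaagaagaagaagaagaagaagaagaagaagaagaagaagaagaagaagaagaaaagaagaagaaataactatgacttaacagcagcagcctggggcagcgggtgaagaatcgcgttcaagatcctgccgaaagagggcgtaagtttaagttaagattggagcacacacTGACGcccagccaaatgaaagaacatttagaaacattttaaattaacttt
Npr1, chr3:90465867-90466116, minus strand: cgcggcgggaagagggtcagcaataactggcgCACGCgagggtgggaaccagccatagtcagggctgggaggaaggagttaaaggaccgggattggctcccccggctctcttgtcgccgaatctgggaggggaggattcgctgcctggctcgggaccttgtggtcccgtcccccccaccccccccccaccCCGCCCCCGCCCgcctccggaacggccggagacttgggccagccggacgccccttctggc
Npr2, chr4:43631685-43631934, plus strand: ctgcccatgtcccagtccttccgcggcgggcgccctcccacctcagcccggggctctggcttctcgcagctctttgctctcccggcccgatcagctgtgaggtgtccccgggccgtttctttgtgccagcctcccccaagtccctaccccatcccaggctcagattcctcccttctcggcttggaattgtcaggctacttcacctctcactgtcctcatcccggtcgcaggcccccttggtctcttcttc

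These windows differ in base composition. GC content was 38.8% for Npr3, 70.4% for Npr1 and 64.4% for Npr2, against a median of 52.4% over 32851 promoters. The first bases of the Npr3 window are a long run of the repeated triplet aga. The RefSeq start of Npr3 lies before the outermost start in the GENCODE annotation, so this window may not be the promoter in use in these cells.

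The windows were searched on both strands for 9 motifs. Npr3 held 1 match to TGACG, the core of the cyclic AMP response element, 50 bases before the start, and 17.8% of all promoters hold this motif. Npr1 held the GC box GGGCGG at 2 places, read as CCGCCC on the strand shown, and the xenobiotic response element core GCGTG at 1 place, read as CACGC. These are found in 32.7% and 28.2% of promoters. None of the 3 windows held the full element TGACGTCA (1.55% of promoters), which contains this core, the AP-1 site TGANTCA (6.75%), the TEAD site GGAATG (12.6%), the SMAD site CAGACA (17.1%), the TATA box TATAAA (12.4%) or a CArG box (1.47%). Npr2 held no match to any of the 9. A match is a description of letters and not a bound site.

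Npr1 (ENSMUSG00000027931) lies on the minus strand of chromosome 3, 90450591 to 90465866. It was counted at 33.0, 32.6 and 35.8 CPM in DMSO and at 35.3, 35.1 and 35.7 CPM after 12 h of riociguat, with overlap. At 6 h it was 37.4, 39.1 and 36.9 CPM, above every DMSO library, and at 24 h it was 31.9, 28.9 and 35.0 CPM. Against DMSO the log2 fold changes were 0.07 ± 0.07 at 12 h (SE, 95% CI -0.09 to 0.22, adjusted p = 0.731), 0.16 ± 0.07 at 6 h (adjusted p = 0.192) and -0.08 ± 0.07 at 24 h (adjusted p = 0.548). None passed the test.

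Npr2 (ENSMUSG00000028469) lies on the plus strand of chromosome 4, 43631935 to 43651244. Its levels in DMSO were 31.0, 32.0 and 29.8 CPM, and at 12 h of riociguat 32.0, 28.5 and 30.2 CPM, with overlap. At 6 h they were 32.5, 37.1 and 30.2 CPM, and at 24 h 26.0, 28.5 and 27.5 CPM, below every DMSO library. The log2 fold changes from DMSO were -0.03 ± 0.08 at 12 h (SE, 95% CI -0.20 to 0.14, adjusted p = 0.9), 0.10 ± 0.08 at 6 h (adjusted p = 0.486) and -0.18 ± 0.08 at 24 h (adjusted p = 0.173), and none passed the test.

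Between 6 and 24 h of riociguat, 4 of the 6 members were called, against 15.3% of all genes. Npr1 was lower at 24 h by a log2 fold change of -0.24 ± 0.07 (SE, adjusted p = 0.0345), Npr2 by -0.28 ± 0.08 (adjusted p = 0.0259) and Npr3 by -0.24 ± 0.08 (adjusted p = 0.0463). Each of these 3 calls was lost under several alternatives. The Npr1 call was lost without any of 5 libraries, which were the 3 of the 6 h group (adjusted p = 0.0741, 0.114 and 0.061 without replicates 1, 2 and 3) and replicates 1 and 2 of the 24 h group (0.0954 and 0.176), and also without a filter (0.0525) or with the compared libraries alone (0.0797). The Npr2 call was lost without replicate 2 of the 6 h group (0.148) or replicates 1 or 3 of the 24 h group (0.116 and 0.074), and with the compared libraries alone (0.0569). The Npr3 call was lost without replicates 1 or 3 of the 6 h group (0.145 and 0.139) or replicates 1 or 2 of the 24 h group (0.227 and 0.107), with RLE factors (0.0531) and with the replicate block (0.0534). The sum of the endothelial markers went from 1587 to 1675 CPM at 6 h to 1097 to 1169 CPM at 24 h, that of the 10 hepatocyte markers from 984 to 1127 to 560 to 779 CPM, and their part in these differences was not tested.

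Per kilobase, the 3 natriuretic peptide receptor genes summed to 22.1 ± 0.186 CPM per kb in DMSO, 21.7 ± 0.725 at 6 h, 17.4 ± 0.538 at 12 h and 18.2 ± 1.04 at 24 h. The clearance receptor was 0.645, 0.621 and 0.579 of the summed level of Npr1 and Npr2 in the 3 DMSO libraries. After 12 h of riociguat the ratio was 0.228, 0.256 and 0.289, below every DMSO library. At 6 h it was 0.470, 0.393 and 0.481 and at 24 h 0.420, 0.468 and 0.464. The log2 difference between 12 h of riociguat and DMSO was -1.26, with a two-sided exact permutation p of 0.1, the smallest that 3 libraries against 3 can give.

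**Figure D2:**
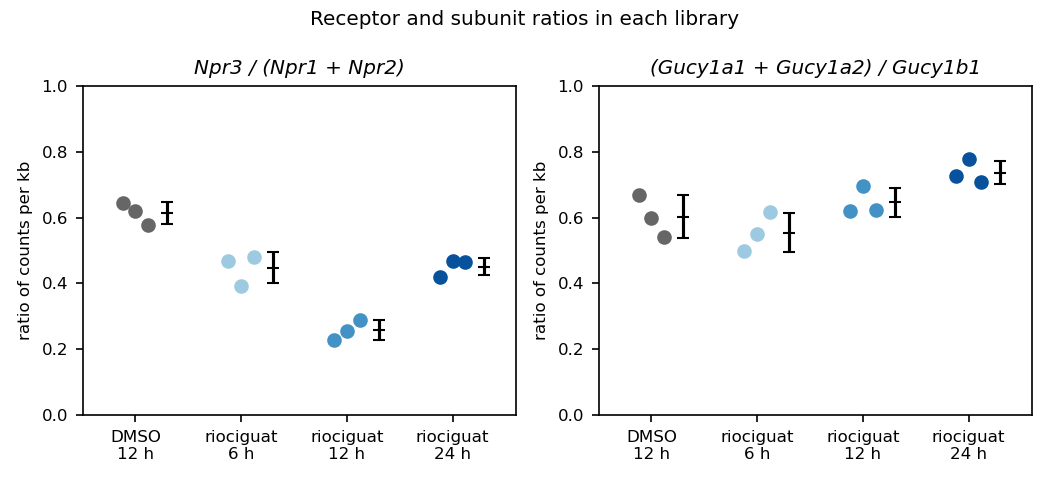
Ratio of levels per kilobase in each library (points, with mean ± SD), for Npr3 over the sum of Npr1 and Npr2 on the left and for the alpha subunit genes over the beta subunit gene on the right. The receptor ratio is 0.228 to 0.289 after 12 h of riociguat and 0.579 to 0.645 in DMSO, and the subunit ratio is 0.707 to 0.777 after 24 h and 0.540 to 0.669 in DMSO.

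Of the soluble guanylate cyclase genes, the alpha subunit gene Gucy1a1 was higher after 24 h of riociguat, and the beta subunit gene Gucy1b1 and the second alpha subunit gene Gucy1a2 did not pass the test in any of the 6 comparisons. Gucy1a1 and Gucy1b1 are neighbours on the minus strand of chromosome 3, 17737 bases apart in GRCm38, with 0 annotated genes between them. Their products form the most widely found dimer of the enzyme.

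Gucy1a1 (ENSMUSG00000033910, chromosome 3, 82092427 to 82145789) was counted at 78.9, 69.1 and 60.8 CPM in DMSO, the widest spread of its groups. The levels were 65.8, 65.7 and 70.7 CPM at 6 h and 69.6, 80.6 and 68.9 CPM at 12 h, both overlapping DMSO. At 24 h they were 93.8, 87.6 and 85.7 CPM, above every other library. The log2 fold change at 24 h was 0.36 ± 0.08 (SE, 95% CI 0.18 to 0.53, adjusted p = 0.00666 by edgeR's quasi-likelihood test), a level 128% of that in DMSO. At 24 h 2 of the 6 members were called, Gucy1a1 and Npr3, against 13.4% of all genes (5.94% higher and 7.41% lower).

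At 12 h the log2 fold change of Gucy1a1 was 0.07 ± 0.08 (SE, 95% CI -0.10 to 0.24, adjusted p = 0.738) and at 6 h -0.04 ± 0.08 (95% CI -0.22 to 0.13, adjusted p = 0.809). At 6 h Npr3 was the 1 member called, against 9.72% of all genes (4.48% higher and 5.24% lower). The level of Gucy1a1 at 24 h was above that at 6 h by 0.40 ± 0.08 (adjusted p = 0.00236). It was above that at 12 h by 0.29 ± 0.08 (adjusted p = 0.071), which did not pass the test but was called without replicate 2 of the 12 h group (0.37, adjusted p = 0.0345). The stellate marker sum was 2525 to 2625 CPM at 24 h against 2339 to 2398 CPM in DMSO, with 4 of 14 genes higher and 2 lower. Reln, the largest part of this sum, was at 1607 to 1703 CPM at 24 h against 1352 to 1377 CPM in DMSO. The median log2 fold change of the 14 genes was -0.0051. The hepatocyte sum was 560 to 779 CPM at 24 h against 1158 to 1217 CPM in DMSO, with 7 of 10 genes lower. The part of stellate cells and hepatocytes in the rise of Gucy1a1 was not tested.

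Gucy1b1 (ENSMUSG00000028005, chromosome 3, 82032006 to 82074689) varied little between groups. It was counted at 69.7, 68.3 and 66.9 CPM in DMSO and at 66.3, 67.6 and 65.2 CPM at 12 h of riociguat. At 6 h the levels were 77.7, 72.3 and 68.7 CPM and at 24 h 75.5, 67.0 and 71.0 CPM, and each riociguat group overlapped DMSO. The log2 fold change at 12 h was -0.04 ± 0.06 (SE, 95% CI -0.16 to 0.08, adjusted p = 0.794), at 6 h 0.09 ± 0.06 (95% CI -0.03 to 0.21) and at 24 h 0.06 ± 0.06 (95% CI -0.06 to 0.18).

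Gucy1a2 (ENSMUSG00000041624, chromosome 9, 3532778 to 3894736, plus strand) had 36 to 112 counts per library, so its estimates are wider. It was at 3.73, 3.50 and 3.10 CPM in DMSO and at 3.05, 2.81 and 3.01 CPM after 12 h, where all 3 libraries lay below DMSO without passing the test (log2 fold change -0.22 ± 0.22, SE, 95% CI -0.69 to 0.24, adjusted p = 0.691). At 6 h it was at 2.83, 4.60 and 4.15 CPM and at 24 h at 3.26, 4.69 and 3.26 CPM. A change within the 95% CI at 12 h was not excluded at this depth.

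Summed per kilobase, the soluble guanylate cyclase genes were at 27.9 ± 1.70 CPM per kb in DMSO, 28.8 ± 0.745 at 6 h, 27.8 ± 1.22 at 12 h and 31.5 ± 1.51 at 24 h. The alpha subunit genes were 0.669, 0.600 and 0.540 of the Gucy1b1 level in DMSO and 0.619, 0.696 and 0.623 at 12 h, a log2 difference of 0.10 with a two-sided exact permutation p of 0.4. The ratio was 0.499, 0.549 and 0.616 at 6 h and 0.726, 0.777 and 0.707 at 24 h, and the 24 h libraries lay above those of every other group. The size of this ratio, and of the receptor ratio, depends on the length used. With the longest transcript, DMSO levels were 14.8 ± 1.92 CPM per kb for Gucy1a1, 1.06 ± 0.0990 for Gucy1a2 and 21.2 ± 0.435 for Gucy1b1.

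**Figure D3:**
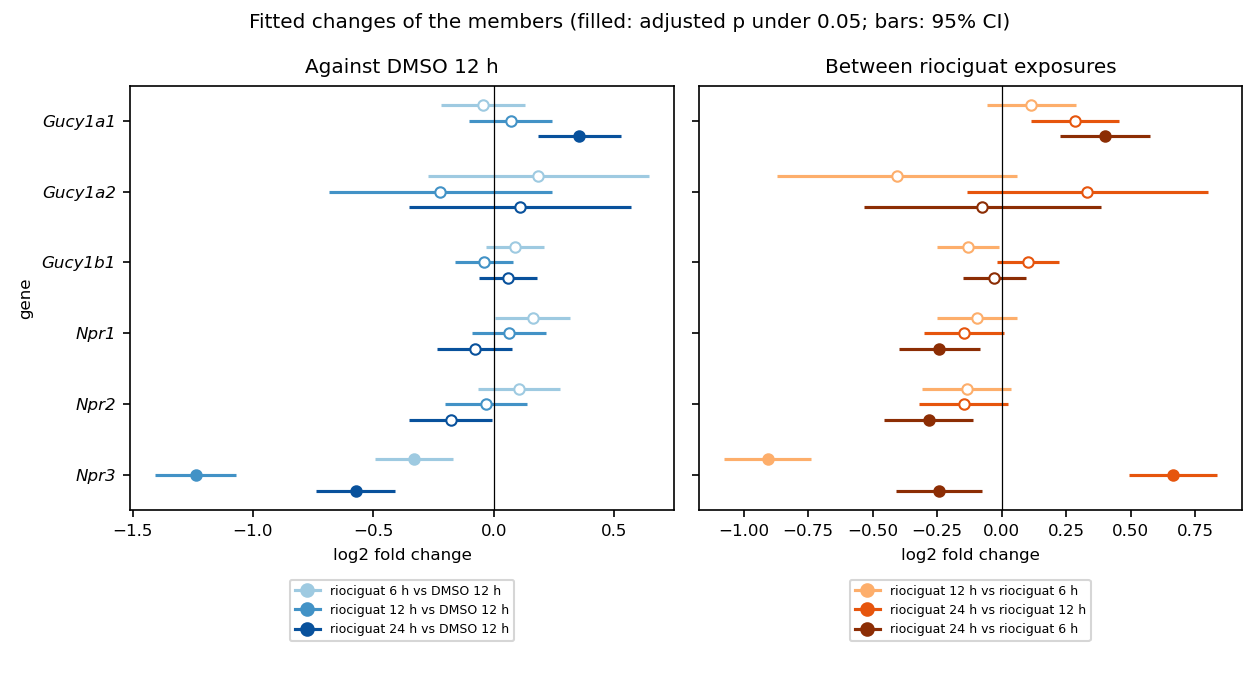
Fitted log2 fold change of each gene with its 95% CI, against DMSO on the left and between riociguat exposures on the right, with filled points for an adjusted p under 0.05. Npr3 has the filled points farthest from 0, at -1.24 for 12 h against DMSO and -0.91 for 12 h against 6 h.

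Some annotated genes overlap exons of the members. They are Mir7010 in Gucy1a1, the antisense genes Gm16048 at Npr1 and Gm12473 at Npr2, and Gm5144 at Npr3. Each had between 0 and 2 counts per library. Whether the counting used the strand is not stated in the labels, so reads of a member and of an antisense partner cannot be told apart.

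The genes whose course was most like that of each called member were found among 10727 genes with a mean of at least 5 CPM, by the root mean square difference of log2 CPM, each gene centred on its own mean, over the 12 libraries. For Npr3 these were Tnc, which encodes the matrix protein tenascin C (0.155), Serpinb6b, a serine protease inhibitor gene (0.187), Arhgap18, a GTPase-activating protein gene (0.196), and Sema3d, a secreted semaphorin gene (0.206). All 4 fell at 12 h, by 1.02, 0.82, 0.94 and 0.87 on the log2 scale. At 6 h the log2 fold changes were -0.37, -0.30, -0.56 and -0.44, and at 24 h -0.73, -0.57, -0.55 and -0.50, so that in each the 12 h group was lowest. The 4 genes were chosen for likeness to Npr3 in these same libraries, so their shared course and calls follow from the choice and are not separate support. All were called at each time, and the Serpinb6b call at 6 h was lost without any of 5 libraries, namely DMSO replicates 1 and 2 and the 3 replicates of the 6 h group (adjusted p = 0.0702, 0.114, 0.0589, 0.0918 and 0.072). 

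For Gucy1a1 the nearest genes were Wdr44 (0.0795), Man1a, a mannosidase of N-glycan trimming (0.0841), Npm1, the nucleolar protein nucleophosmin (0.0861), and Arap2 (0.0896). Their log2 fold changes at 24 h, likewise tied to the choice by likeness, were 0.42, 0.27, 0.25 and 0.40. Man1a did not pass the test (adjusted p = 0.0637). For Npr1 the nearest genes were Frmd4b (0.0463), Gimap6 (0.0585), Slc35e2 (0.0589) and Pmp22 (0.0603). For Npr2 they included Akap10, an anchoring protein of protein kinase A (0.0605), Slc38a7 (0.0645) and Scyl3 (0.0664). Npr1 and Npr2 entered this search only through their calls between 24 and 6 h. Both varied less than Npr3, and by this measure a gene that varies little lies near other such genes. Their smaller distances therefore do not mean a closer likeness than that of the genes near Npr3.

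**Figure D4:**
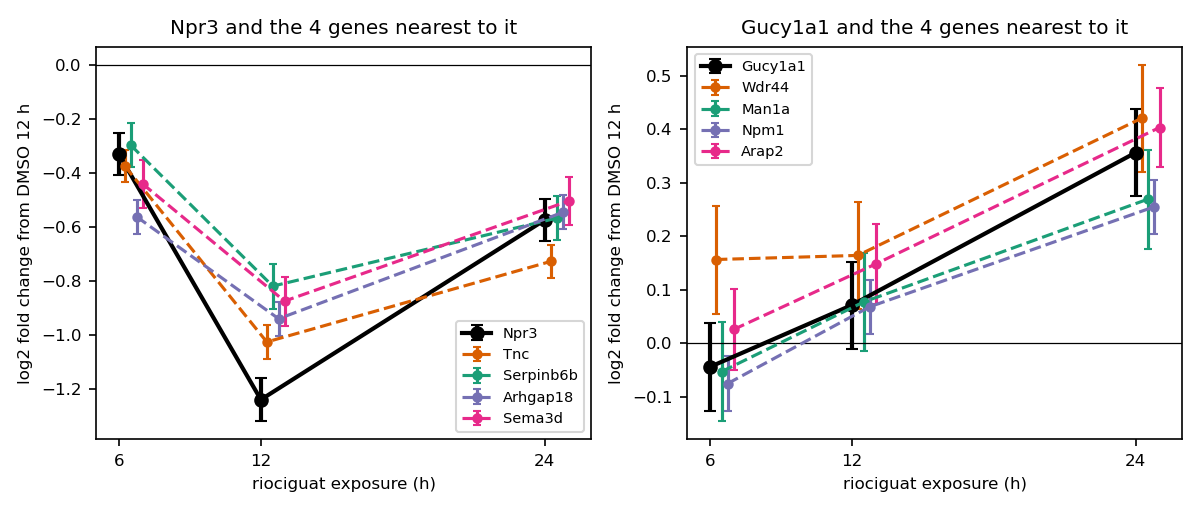
Log2 fold change from DMSO 12 h (vertical axis, bars give the SE) against exposure time in hours for Npr3 and Gucy1a1 (black) and the 4 genes nearest to each. Npr3 and its 4 neighbours are all lowest at 12 h, at -1.24 for Npr3 and -0.82 to -1.02 for the others. The neighbours were chosen for likeness in these same libraries.

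The genes that feed, read and remove cyclic GMP were followed in 6 lists of 61 genes, of which 38 could be tested. At 12 h 2 of the 38 rose and 4 fell, or 15.8% called against 5.66% of all genes. At 6 h 4 rose and 3 fell (18.4% against 9.72%), and at 24 h 3 rose and 6 fell (23.7% against 13.4%). The lists were chosen with earlier results of these data known, so these shares are a description and not a test of the lists. The median log2 fold change of all tested genes was 0.0025 at 12 h, -0.0044 at 6 h and -0.0065 at 24 h.

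Among the ligands of the natriuretic receptors, expression was low. Nppa had 2 counts and Nppc 44 counts summed over the 12 libraries, the ligand-like Ostn 5 and the protease Corin 5, so these were not tested. Nppb was tested at 0.609 ± 0.108 CPM in DMSO. The processing and degrading proteases Furin (219 ± 9.62 CPM), Ide (125 ± 4.20 CPM) and Mme (1.67 ± 0.190 CPM) were tested too. None of the 4 tested genes was called at any exposure against DMSO, and the medians were -0.06 at 12 h, 0.038 at 6 h and 0.016 at 24 h.

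Of the 9 genes of nitric oxide supply, 1 fell at 12 h, 1 at 6 h and 3 at 24 h, and none rose. Their medians were 0.053, -0.097 and -0.13. The list holds synthases together with genes that act on them in either direction, so these medians do not measure supply. Ddah1, which breaks down the endogenous inhibitor of nitric oxide synthases, was counted at 62.5, 71.3 and 65.9 CPM in DMSO. It was at 40.3, 41.1 and 43.7 CPM after 6 h, 32.9, 31.0 and 33.7 CPM after 12 h and 29.6, 29.1 and 36.4 CPM after 24 h, below every DMSO library each time. Its log2 fold changes were -0.67 ± 0.08, -1.04 ± 0.08 and -1.07 ± 0.08 at 6, 12 and 24 h (SE, adjusted p = 2.95e-05, 2.36e-07 and 1.08e-07). At 24 h its relative Ddah2 fell by 0.45 ± 0.08 (adjusted p = 0.00115). Nos3, the endothelial nitric oxide synthase, fell by 0.38 ± 0.11 (adjusted p = 0.0298), which no longer passed once DMSO replicate 1 or 2 (0.073 and 0.109) or replicate 1 of the 24 h group (log2 fold change -0.23, adjusted p = 0.175) was left out, or with the compared libraries alone (0.0775). The endothelial marker sum went from 1310 to 1399 CPM in DMSO to 1097 to 1169 CPM, and its part in this fall was not tested.

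Of the 6 tested effectors of cyclic GMP, 2 fell and none rose at 12 h, 1 rose and 1 fell at 6 h, and 2 rose and 2 fell at 24 h. Irag1, listed as Mrvi1 in some annotations, encodes a partner of the cyclic GMP-dependent kinase at the calcium store. It was at 50.1, 55.6 and 54.0 CPM in DMSO, and between 23.8 and 28.2 CPM in all 9 riociguat libraries. Its log2 fold change was -0.99 ± 0.08 at 6 h, -1.01 ± 0.08 at 12 h and -1.09 ± 0.08 at 24 h (SE, adjusted p = 2.16e-07, 1.43e-07 and 4.26e-08). Vasp, an actin-binding substrate of the kinase, fell by 0.39 ± 0.06 at 12 h (adjusted p = 0.000332) and 0.30 ± 0.06 at 24 h (adjusted p = 0.00199). Prkg1, the kinase itself, rose by 0.43 ± 0.10 at 6 h (adjusted p = 0.00759, lost without replicate 2 of the 6 h group at 0.0571), and Prkg2 by 0.58 ± 0.16 at 24 h (adjusted p = 0.0239, lost without DMSO replicate 1 or 2 or replicate 1 or 3 of the 24 h group, at 0.0544, 0.109, 0.0645 and 0.0842). The list's medians were -0.094 at 6 h, -0.016 at 12 h and -0.078 at 24 h.

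Of the 12 tested genes of hydrolysis and export, 2 rose and 1 fell at each of 6 and 12 h, and 1 rose and 1 fell at 24 h. Pde1a, a phosphodiesterase driven by calcium and calmodulin, was at 48.7, 47.4 and 49.6 CPM in DMSO. After 6 h it was at 35.3, 40.8 and 40.2 CPM, below DMSO, and after 12 h at 63.0, 67.2 and 67.7 CPM and after 24 h at 81.7, 73.2 and 71.0 CPM, above DMSO. The log2 fold changes were -0.32 ± 0.07, 0.44 ± 0.07 and 0.63 ± 0.07 (SE, adjusted p = 0.00621, 0.000332 and 4.17e-06). Abcc4, a transporter that exports cyclic nucleotides, rose by 0.49 ± 0.04 at 6 h (adjusted p = 1.65e-06) and 0.26 ± 0.04 at 12 h (adjusted p = 0.00111). Pde2a, a phosphodiesterase stimulated by cyclic GMP, fell by 0.46 ± 0.09 at 24 h (adjusted p = 0.00292). Pde3a fell by 0.26 ± 0.07 at 12 h (adjusted p = 0.0266, lost without DMSO replicate 1 or 2 or replicate 1 or 2 of the 12 h group, at 0.0544, 0.156, 0.119 and 0.155). Pde10a rose by 0.37 ± 0.09 at 6 h (adjusted p = 0.0163, lost without DMSO replicates 1 or 3 or replicates 2 or 3 of the 6 h group, at 0.0549, 0.059, 0.0592 and 0.0622). The medians were 0.11, 0.0067 and 0.038 at 6, 12 and 24 h.

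The other guanylate cyclases, the guanylins and 2 guanylate cyclase activator genes, Guca1a and Guca1b, were scarcely expressed. Of these 10 genes 3 could be tested, the cyclase gene Gucy2g and the activator genes Guca1a and Guca1b, and none was called against DMSO. Gucy1b2, the second beta subunit, and Gucy2d had 0 counts in all libraries. Among the 4 partners of soluble guanylate cyclase, the chaperone gene Hsp90aa1 rose by 0.18 ± 0.05 at 6 h (SE, adjusted p = 0.0403, lost without DMSO replicate 2 or 3 or replicate 2 or 3 of the 6 h group, at 0.136, 0.168, 0.164 and 0.0742, and with a replicate block at 0.0687). None of the 4 was called at 12 or 24 h.

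**Figure D5:**
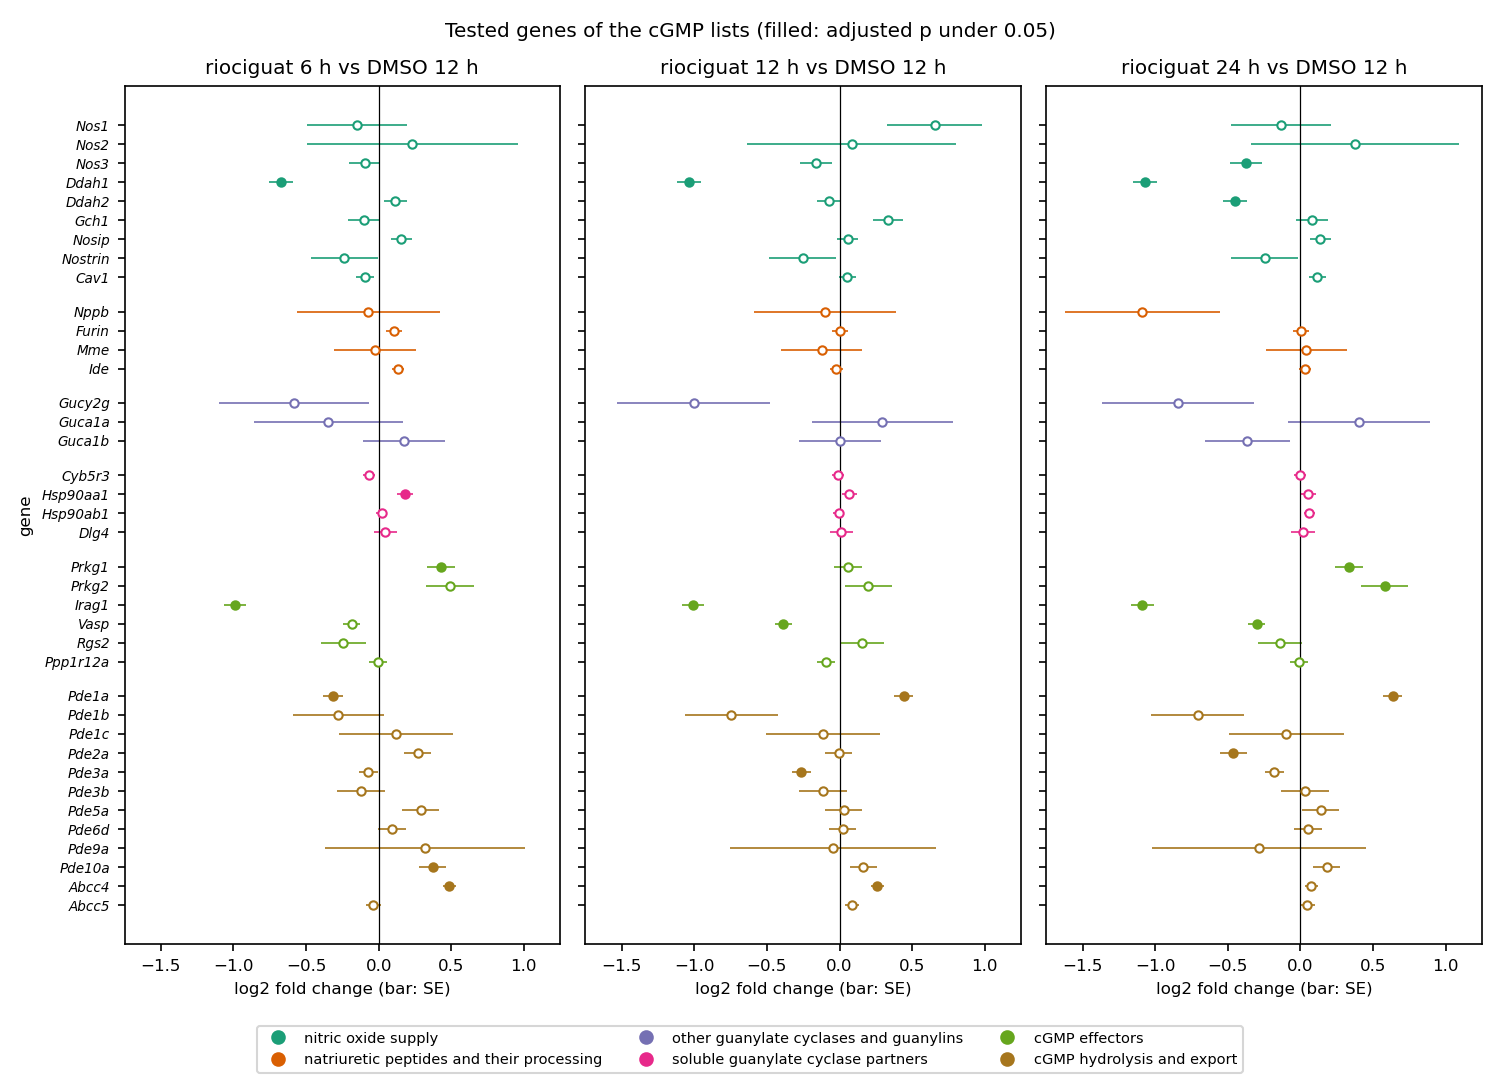
Log2 fold change with its SE (horizontal axis) of the 38 tested genes of the 6 lists (vertical axis, coloured by list) after 6, 12 and 24 h of riociguat against DMSO 12 h, with filled points for an adjusted p under 0.05. Irag1 lies near -1 in all 3 panels, and Ddah1 goes from -0.67 at 6 h to -1.07 at 24 h.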

How the data were processed

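The authors deposited 1 table of expected counts per gene for the 12 libraries. The submitters' processing notes name Salmon, fastp, FastQC, DESeq2 and GRCm38, without versions or order. Salmon divides reads among transcripts that share sequence, which makes overlapping genes uncertain. The values were whole numbers, and rounding changed none.

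Counts were tested with edgeR 4.0.16 in R 4.3.3 with the two-sided quasi-likelihood test (glmQLFTest on glmQLFit) after filterByExpr and TMM scaling. A single model covered the 12 libraries and had a term for group. The filter left 16036 genes, and p-values were adjusted by the Benjamini-Hochberg method within each comparison. The standard error is the log2 fold change divided by the root of the F statistic. The biological coefficient of variation was 0.0798. The 6 comparisons share groups, and the 3 with DMSO share its libraries. Chi-square per degree of freedom within groups was 4.08 to 16.0, so no 2 libraries were alike within sampling noise. Steps were tested on simulated data.

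The members and lists were chosen with earlier results of these data known. Named are the 6 members, the 4 genes nearest to each called member (at least 5 CPM, no predicted-gene name), and at most 3 called genes per list and comparison by smallest p. For Npr2, 1 of the 4 nearest genes is not reported here. Alternatives were RLE factors, DESeq2 1.42.0, no filter, at least 10 counts in every library, the compared libraries alone, a replicate term, each library left out, and other lengths in the ratios. Of the 53452 genes, 53355 matched a symbol. Promoters are from RefSeq (GRCm38.p6), and all 6 members matched.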

Additional observations from a re-analysis of the deposited data

Results flagged for a closer look

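Several members differed between 2 exposure times, by the direct test between riociguat groups (edgeR's quasi-likelihood test), which is the difference of their changes from the shared DMSO libraries. For Npr3 the log2 difference was -0.91 between 12 and 6 h (adjusted p = 1.74e-06), 0.66 between 24 and 12 h (adjusted p = 0.000118) and -0.24 between 24 and 6 h (adjusted p = 0.0463). Between 24 and 6 h it was 0.40 for Gucy1a1 (adjusted p = 0.00236), -0.24 for Npr1 (adjusted p = 0.0345) and -0.28 for Npr2 (adjusted p = 0.0259). The calls of Npr1, Npr2 and Npr3 between 24 and 6 h were lost in 7, 4 and 6 of the 12 alternatives. Npr1 and Npr2 were not called against DMSO at any exposure. In each of these 6 differences, exposure time and stage of culture at addition cannot be told apart.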

How the results depend on the processing

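The fall of Npr3 at 12 h (-1.32 to -1.17) and at 24 h against DMSO, its differences between 12 and 6 h and between 24 and 12 h, and the rise of Gucy1a1 at 24 h against DMSO (0.28 to 0.46) and against 6 h passed the threshold in all 12 alternatives. The count of members called was 0 to 1 at 6 h against DMSO when 1 library was left out, 0 without replicate 2 of the 6 h group. For 24 against 12 h it was 1 to 2 with a library left out, and 2 without a filter, with the compared libraries alone or with DESeq2, since Gucy1a1 was then called (adjusted p = 0.000724, 0.0306 and 0.0218). For 24 against 6 h it was 1 to 3 with a library left out and 2 with the compared libraries alone. With a library left out, these log2 fold changes that were not called crossed 0: Gucy1a1 at 12 h (-0.0086 to 0.17) and 6 h (-0.13 to 0.055), Npr2 at 12 h (-0.068 to 0.019) and Gucy1a2 at 24 h (-0.066 to 0.21) against DMSO, and Gucy1b1 (-0.071 to 0.023) and Gucy1a2 (-0.25 to 0.063) at 24 against 6 h. The cause was not tested.

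No strong pairing by replicate number was seen: 0 of 18 same-number pairs correlated above 0.1 (-0.136 to 0.0843). Since 6 of 12 libraries correlated best with their own number, a weak pairing was not excluded. With the replicate block, the Npr3 call at 24 against 6 h was lost (-0.24, adjusted p = 0.0534) and 793 genes instead of 907 were called at 12 h. Counts over all genes moved by more than 1.5 times at 12 h against DMSO (564 and 567 without DMSO replicates 2 and 3, 510 without riociguat replicate 2), at 6 h (955 and 992 without those DMSO libraries, 1010 without 6 h replicate 2, from 1559), at 24 h (1395 without DMSO replicate 2, from 2141), at 12 against 6 h (600 without 6 h replicate 3, 596 without 12 h replicate 2, from 976) and at 24 against 12 h (838 without a filter, 318 and 319 without 12 h replicates 1 and 2, from 494). Depth limits Gucy1a2 most.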
